A study of Mus musculus with 2 samples.

Results

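The 10 genes described here are regulators and marker genes of medullary and tuft-like thymic epithelium, namely Aire, Fezf2, Spib, Pou2f3, Trpm5, Cd80, Cd86, Pdpn, Il4i1 and Ubd. They were taken by symbol from 25791 listed genes, and all 10 were found. Il4i1 and Ubd were picked for their values in these libraries, and the other members were chosen with earlier results of the same libraries known, so their levels are a description and support no claim about the group. RNA was sequenced from epithelial cells of fetal thymus at 15 days post coitum, sorted as EpCAM+ and as CD45- and PDGFRa-. One library is titled humanCD3eTg, after a human CD3E transgene, and came from mice of C57BL/6J x CBA/J background. The other is titled B6J and came from C57BL/6 mice. Each group had 1 library, so there is no spread between mice, no test was possible, and transgene and strain background cannot be told apart. Whether embryos were pooled is not given in the sources used here.

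The series compared epithelium that had developed with or without thymocytes. The treatment label puts thymocytes in humanCD3eTg and their absence in B6J, whereas mice with many copies of human CD3E are generally known to lack T cells. Summed over 18 thymocyte genes, the level was 14.2 FPKM in humanCD3eTg, against 181.5 FPKM in B6J, which goes against the treatment labels. FPKM is the number of fragments scaled to transcript length and to the total of mapped fragments. The libraries are therefore called by their titles, and each difference is that of humanCD3eTg relative to B6J. Leukocyte and endothelial transcripts were also lower in humanCD3eTg. The 10 pan-haematopoietic genes, among them Ptprc, which encodes CD45, summed to 10.8 FPKM in humanCD3eTg and 88.2 FPKM in B6J. The 10 blood endothelial genes summed to 17.6 FPKM in humanCD3eTg and 61.3 FPKM in B6J. Epcam, the epithelial surface protein of the sort, stood at 231.4 FPKM in humanCD3eTg and 173.5 FPKM in B6J. An estimated 16100000 fragments stood behind humanCD3eTg and 19900000 behind B6J.

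The thymic medulla is where developing T cells are tested for reactivity to self. Medullary epithelial cells mature under signals of the TNF receptor family, mainly RANK, CD40 and the lymphotoxin beta receptor, whose ligands come largely from lymphoid cells. Mature medullary cells use the nuclear protein AIRE and the zinc finger factor FEZF2 to transcribe genes otherwise restricted to other tissues, and they carry the co-stimulatory proteins CD80 and CD86. A further medullary type resembles the tuft cells of gut and airway, depends on the transcription factor POU2F3 and uses the taste transduction channel TRPM5.

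The members formed a set near the detection limit in humanCD3eTg and a set of similar level in both libraries. Aire stood at 0.0366 FPKM in humanCD3eTg, and Fezf2, Cd80, Cd86, Il4i1 and Ubd were listed there at 0. Spib, Pou2f3, Trpm5 and Pdpn stood at 1.09 to 14.6 FPKM in humanCD3eTg. In B6J the 10 members lay between 0.107 and 17.9 FPKM, and none was listed at 0. All 10 members were lower in humanCD3eTg with the values as deposited, while Trpm5 alone turned to the other side, at a log2 ratio of 0.06, when the libraries were quantile normalized. On FPKM + 1, which understates differences of low genes, 5 of 10 members were at least 2-fold lower (Aire, Fezf2, Cd80, Il4i1 and Ubd) and 0 were at least 2-fold higher. Of all 25791 genes, 2.81% were lower and 1.30% higher by 2-fold or more on the same measure. As the members were chosen on this same contrast, nothing is read from these shares. The median log2 ratio was -0.98 over the 10 members and -0.27 over the 5 not listed at 0, beside 0.0 over all genes. In bulk RNA, fewer cells of a type and less RNA per cell cannot be told apart.

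**Figure D1:**
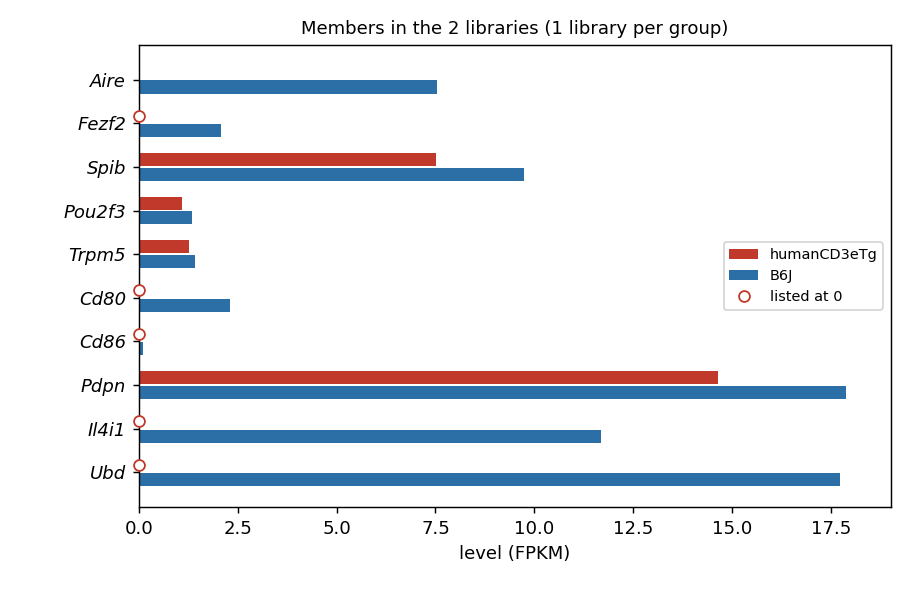
Level in FPKM (horizontal axis) of the 10 members in the humanCD3eTg library (red) and the B6J library (blue), with open circles for genes listed at 0 and no error bars because each group had 1 library. Spib, Pou2f3, Trpm5 and Pdpn have bars in both libraries, whereas Aire, at 0.0366 FPKM in humanCD3eTg, has no visible bar there.

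Stretches before the transcription start are shown for 3 genes that were near or at 0 in humanCD3eTg (Aire, Fezf2 and Ubd) and for 1 of similar level in both libraries (Spib). They are RefSeq sequences of build GRCm38.p6, 250 bases long and ending just before the start: Aire at chr10:78043611-78043860 (minus strand), Fezf2 at chr14:12345866-12346115 (minus strand), Ubd at chr17:37193642-37193891 (plus strand) and Spib at chr7:44532072-44532321 (minus strand). The authors' tables give no coordinates, so nothing is transferred between builds. Capitals mark matches, on either strand, to the kappaB consensus and, in Ubd alone, to the interferon response core AAANNGAAA.
Aire: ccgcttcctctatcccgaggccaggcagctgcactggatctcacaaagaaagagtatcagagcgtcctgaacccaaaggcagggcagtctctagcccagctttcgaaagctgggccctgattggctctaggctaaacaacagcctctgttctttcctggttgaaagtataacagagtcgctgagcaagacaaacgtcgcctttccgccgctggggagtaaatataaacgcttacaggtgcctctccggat
Fezf2: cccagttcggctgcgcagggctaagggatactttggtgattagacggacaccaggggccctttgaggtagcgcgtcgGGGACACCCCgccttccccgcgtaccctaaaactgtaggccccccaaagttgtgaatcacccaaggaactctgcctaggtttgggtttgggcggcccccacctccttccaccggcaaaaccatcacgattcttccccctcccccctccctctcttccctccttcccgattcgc
Ubd: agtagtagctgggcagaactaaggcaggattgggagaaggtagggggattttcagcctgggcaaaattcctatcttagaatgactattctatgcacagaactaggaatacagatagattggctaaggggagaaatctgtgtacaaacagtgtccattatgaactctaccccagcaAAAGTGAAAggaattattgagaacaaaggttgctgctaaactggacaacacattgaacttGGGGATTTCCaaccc
Spib: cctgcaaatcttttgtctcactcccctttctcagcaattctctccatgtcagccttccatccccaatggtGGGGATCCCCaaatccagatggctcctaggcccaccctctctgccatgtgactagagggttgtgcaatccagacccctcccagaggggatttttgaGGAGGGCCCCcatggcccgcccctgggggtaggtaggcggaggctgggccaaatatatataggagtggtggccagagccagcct
RefSeq promoters were found for 8 of 10 members, all except Pou2f3 and Cd86, and 3 of them (Spib, Trpm5 and Il4i1) lie on chromosome 7. The kappaB consensus matched in 3 of these 8 stretches (Fezf2, Spib and Ubd), and in 7.25% of 32851 promoters of the same length. In Ubd the match began 15 bases before the start, in Fezf2 173 bases before it and in Spib 180 and 84 bases before it. So the motif occurred both in genes listed at 0 in humanCD3eTg and in a gene present in both libraries. The interferon-related motif TTCNNNGAA matched in 0 of 8 member stretches, against 7.02% of all promoters. The interferon response core AAANNGAAA matched in Ubd alone, 75 bases before the start and apart from its kappaB match, and in 9.37% of all promoters. The ETS motif GAGGAAGT matched in Il4i1 only, against 2.44% of all promoters, and the octamer ATGCAAAT in 0 of 8, against 1.6%. A match of letters is not evidence of binding, and no match says only that the letters are absent from these stretches.

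Aire, whose protein switches on self antigens in the medulla, stood at 0.0366 FPKM in humanCD3eTg, against 7.53 FPKM in B6J. The steps between low FPKM values allow the fragments behind each value to be estimated. The Aire value in humanCD3eTg corresponds to about 1 fragment over its longest coding transcript (95% Poisson interval 0.025 to 5.57), against about 258 fragments (227.5 to 291.5) in B6J. At the B6J level, about 208 fragments would have been counted in a library of the depth of humanCD3eTg. The ratio of humanCD3eTg to B6J was 0.0049 in FPKM, with an exact binomial interval of 0.00012 to 0.027. All such intervals rest on the estimated fragments and cover counting error only. The annotation places Dnmt3l on the opposite strand over 1664 bases of the Aire gene, and Dnmt3l was listed at 0 in humanCD3eTg and at 0.786 FPKM in B6J.

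Fezf2, which drives a set of tissue-restricted antigens apart from that of AIRE, was listed at 0 in humanCD3eTg, against 2.09 FPKM in B6J. The B6J value rests on about 92 fragments (74.2 to 112.8), and about 74 would have been counted in humanCD3eTg at that level. A value of 0 in these tables can be a failed estimate, since Hmgcs1, which growing cells use, was listed at 0 in both libraries. For this reason no fold is given against a 0. Of 11989 genes with at least 2 FPKM in B6J, 85 (0.709%) were listed at 0 in humanCD3eTg. Of 11645 genes with at least 2 FPKM in humanCD3eTg, 42 (0.361%) were listed at 0 in B6J.

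Antigen genes known to depend on AIRE were listed at 0 in both libraries in 5 of 8 cases. Those known to depend on FEZF2 and averaging 1 FPKM or more lay within 2-fold on FPKM + 1. Of 8 AIRE-dependent antigen genes, 0 averaged 1 FPKM or more over the libraries. Ins2 (insulin), Spt1, Mup4 (of a family with near-identical copies), Rbp3 and Tff3 were listed at 0 in both libraries. The others, named after their values were seen, went both ways. Ppy, a pancreatic hormone gene, stood at 1.83 FPKM in humanCD3eTg and was listed at 0 in B6J. Csn2, a milk casein gene, was listed at 0 in humanCD3eTg, against 0.818 FPKM in B6J, and Mup1 likewise, against 0.0989 FPKM in B6J. Of 7 FEZF2-dependent antigen genes, 3 reached that mean and 0 of them differed by 2-fold. Krt10, a keratin of differentiating epidermis, stood at 2.67 FPKM in humanCD3eTg and 2.93 FPKM in B6J. Maoa, which encodes monoamine oxidase A, stood at 7.20 FPKM in humanCD3eTg and 7.09 FPKM in B6J. Nol4, the other of the 3, stood at 1.905 FPKM in humanCD3eTg and 2.93 FPKM in B6J. Apoc3 and Fabp9 were listed at 0 in both libraries. Resp18 stood at 0.499 FPKM in humanCD3eTg and 0.888 FPKM in B6J, and Calb1 at 0.0711 FPKM in humanCD3eTg and 0.188 FPKM in B6J. Both were picked after their values were seen. Over all 7, with no filter, 4 were lower and 1 higher in humanCD3eTg. Genes for the proteins that AIRE works with were of similar level, with 15 of 15 within 2-fold, 8 lower and 7 higher in humanCD3eTg (median log2 ratio -0.01). Among all 13493 genes averaging 1 FPKM or more, only 4.47% were lower and 2.10% higher by 2-fold or more. Most genes therefore lay within 2-fold, and nothing particular to these lists is read from their counts. The member of this list with the lowest ratio was Xrcc6, which encodes the DNA repair protein Ku70, at 14.9 FPKM in humanCD3eTg and 27.4 FPKM in B6J.

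Spib, an ETS family transcription factor of medullary epithelium that B cells and plasmacytoid dendritic cells also express, was present in both libraries. It stood at 7.51 FPKM in humanCD3eTg and 9.74 FPKM in B6J. The values rest on about 310 fragments (276.4 to 346.5) in humanCD3eTg and 498 (455.2 to 543.7) in B6J. The FPKM ratio of humanCD3eTg to B6J was 0.77, with a counting interval of 0.67 to 0.89. The interval assumes the longest of 3 coding transcripts, of 2788 bases, and would be wider for the shortest, of 802 bases. Whether the gap exceeds the spread between mice could not be assessed. Defining B cell genes were low in both libraries, with Cd79a at 1.35 FPKM in humanCD3eTg and 2.89 FPKM in B6J.

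Pou2f3 and Trpm5, the tuft cell factor and the taste channel, were low and close in both libraries. Pou2f3 stood at 1.09 FPKM in humanCD3eTg and 1.36 FPKM in B6J, from about 42 fragments in humanCD3eTg and 65 in B6J. Its ratio of humanCD3eTg to B6J was 0.80, with a counting interval of 0.53 to 1.20. Trpm5 stood at 1.27 FPKM in humanCD3eTg and 1.42 FPKM in B6J, from about 80 fragments in humanCD3eTg and 111 in B6J. Its ratio was 0.89, with an interval of 0.66 to 1.20. Tssc4 overlaps the Trpm5 gene on the opposite strand over 1845 bases and stood at 20.97 FPKM in humanCD3eTg and 26.85 FPKM in B6J. Use of strand is not given in the sources used here, so the values of Trpm5 and Tssc4 cannot be separated with certainty.

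The wider tuft cell programme was sparse in both libraries, so the label tuft-like rests on few transcripts. Of 20 other tuft cell genes, 7 averaged 1 FPKM or more over the libraries, 1 of them lower and 1 higher by 2-fold or more, and their median log2 ratio was 0.18. Among all 13493 genes of that mean, 4.47% were lower by 2-fold or more and 2.10% higher, and the median was -0.05. Gng13, a G protein subunit of taste transduction, stood at 7.51 FPKM in humanCD3eTg and 1.34 FPKM in B6J. Dclk1, a kinase that marks tuft cells and is also found in neurons, stood at 2.04 FPKM in humanCD3eTg and 0.789 FPKM in B6J. Lrmp, of tuft cells and lymphocytes, stood at 0.309 FPKM in humanCD3eTg and 3.93 FPKM in B6J. Il17rb, a receptor chain for interleukin 25, stood at 1.60 FPKM in humanCD3eTg and 2.34 FPKM in B6J. Sh2d6 and Rgs13 were listed at 0 in both libraries. Il25, the cytokine of tuft cells, and Gnat3, gustducin, both picked after their values were seen, were listed at 0 in humanCD3eTg and at 0.465 and 1.24 FPKM in B6J. Over all 20 tuft cell genes, with no filter, 12 were lower and 6 higher in humanCD3eTg, and 4 were listed at 0 in humanCD3eTg only, against 0 in B6J only. The filtered genes split more evenly, with 3 lower and 4 higher.

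**Figure D2:**
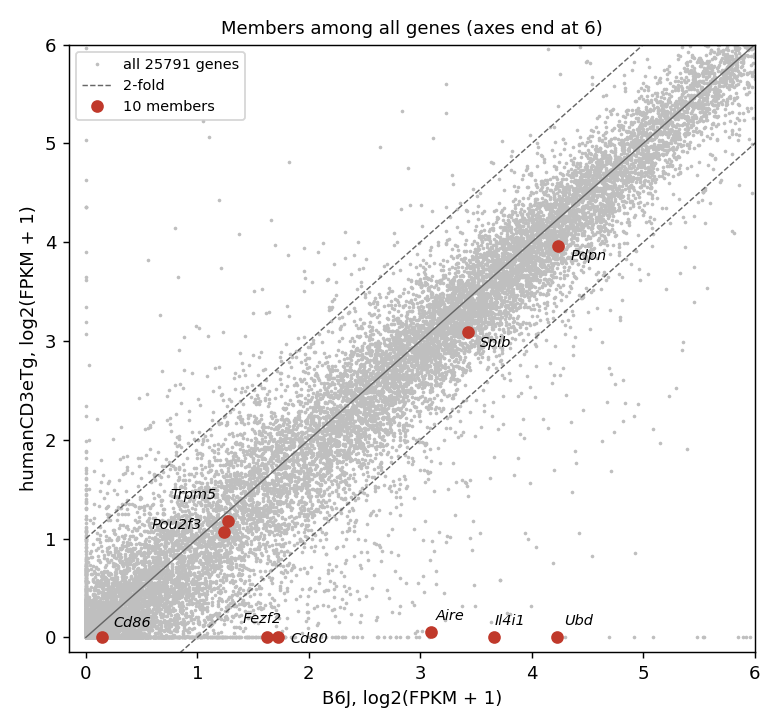
Level in humanCD3eTg (vertical axis) against level in B6J (horizontal axis), both as log2(FPKM + 1), for all 25791 genes (grey) and the 10 members (red). The dashed lines mark 2-fold differences and genes above 6 lie outside the axes. Pdpn, Spib, Trpm5 and Pou2f3 lie near the diagonal, as deposited slightly below it (Trpm5 above it after quantile normalization), while Aire, Il4i1, Ubd, Fezf2 and Cd80 lie at or near the bottom.

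Cd80 and Cd86 encode the ligands through which antigen-presenting cells engage CD28 and CTLA-4 on T cells. Cd80 was listed at 0 in humanCD3eTg, against 2.30 FPKM in B6J. That value rests on about 135 fragments (113.2 to 159.8), and about 109 would have been counted in humanCD3eTg at the B6J level. Cd86 was listed at 0 in humanCD3eTg, against 0.107 FPKM in B6J, where it rests on about 5 fragments (1.62 to 11.7). A count of 0 allows up to 3.69 fragments by the same interval, so a difference in Cd86 was not detectable at this depth. Cd86 was also the 1 member whose mean was below 1 FPKM. Thus Cd80 was the more abundant of the pair in B6J.

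Of 9 other co-stimulation genes, 5 averaged 1 FPKM or more. On FPKM + 1, 2 of them (Icosl and Ctla4) were at least 2-fold lower, 0 higher by that much and 3 within 2-fold (median log2 ratio -0.99). Over all 13493 genes of that mean, 4.47% were lower and 2.10% higher by 2-fold or more (median -0.05). Icosl, the ligand of the T cell co-receptor ICOS, stood at 1.14 FPKM in humanCD3eTg and 6.69 FPKM in B6J. Cd274, which encodes the inhibitory ligand PD-L1, stood at 48.2 FPKM in humanCD3eTg and 87.5 FPKM in B6J. Cd276, a further ligand of this family, named after its values were seen, was level, at 4.72 FPKM in humanCD3eTg and 4.89 FPKM in B6J. Over all 9 genes, with no filter, 8 were lower and 1 higher in humanCD3eTg. Of those under the mean filter, Pdcd1lg2 stood at 0.0786 FPKM in humanCD3eTg and 1.54 FPKM in B6J. Pdcd1 was listed at 0 in humanCD3eTg, against 1.33 FPKM in B6J. Both were picked after their values were seen. The receptor genes Cd28 and Ctla4, which T cells express, were lower too. Cd28 stood at 0.353 FPKM in humanCD3eTg and 1.69 FPKM in B6J. Its ratio of humanCD3eTg to B6J was 0.209 in plain FPKM, so it lay within 2-fold only on FPKM + 1. Ctla4 was listed at 0 in humanCD3eTg, against 4.57 FPKM in B6J. Thymocyte genes were lower in the same library, 11 of 13 by at least 2-fold (median -2.63), and their part in these differences was not tested. Of the dendritic cell genes, 4 averaged 1 FPKM or more (Zbtb46, Batf3, Cd83 and Tcf4), with 0 past 2-fold on FPKM + 1 (median -0.30). Over all 11, with no filter, 7 were lower and 2 higher in humanCD3eTg, and the content of dendritic cells was not tested. Cd209a and Clec9a were listed at 0 in both libraries.

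Pdpn encodes podoplanin, a membrane glycoprotein of immature medullary and junctional thymic epithelium that lymphatic endothelium and fibroblasts also carry. It stood at 14.6 FPKM in humanCD3eTg and 17.9 FPKM in B6J, the highest level of any member in each library. The values rest on about 376 fragments (339 to 416) in humanCD3eTg and 568 (522.2 to 616.7) in B6J. The ratio of humanCD3eTg to B6J was 0.82, with a counting interval of 0.72 to 0.94. Of 7 podoplanin partner genes, 6 averaged 1 FPKM or more and 0 differed by 2-fold (median -0.17). Msn, which encodes moesin, a link of podoplanin to actin, stood at 10.3 FPKM in humanCD3eTg and 19.2 FPKM in B6J. Cd9, a tetraspanin, stood at 123.5 FPKM in humanCD3eTg and 71.0 FPKM in B6J. Clec1b, the platelet receptor for podoplanin, stood at 0.142 FPKM in humanCD3eTg and was listed at 0 in B6J. The 10 mesenchymal genes summed to 266.2 FPKM in humanCD3eTg and 252.6 FPKM in B6J, so mesenchymal transcripts were present in both sorts. Of 9 averaging 1 FPKM or more, 6 were lower and 3 higher, and 1 (Thy1) was at least 2-fold lower (median -0.18). Among all 13493 genes of that mean, 4.47% were lower by 2-fold or more. Thy1 stood at 2.97 FPKM in humanCD3eTg and 23.8 FPKM in B6J. Thymocyte genes were lower in the same library, 11 of 13 by at least 2-fold (median -2.63), and the cell source of Thy1 was not tested. Col1a1 was higher in humanCD3eTg, at 65.97 FPKM in humanCD3eTg and 35.5 FPKM in B6J. The 5 lymphatic endothelial genes summed to 35.8 FPKM in humanCD3eTg and 85.6 FPKM in B6J, mostly from Ccl21a, which medullary epithelium also expresses, at 33.5 FPKM in humanCD3eTg and 84.3 FPKM in B6J. The other lymphatic markers were low and went both ways. Lyve1 was listed at 0 in humanCD3eTg, against 0.125 FPKM in B6J, whereas Prox1 stood at 1.04 FPKM in humanCD3eTg and 0.33 FPKM in B6J. Both were picked after their values were seen.

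Il4i1, a secreted enzyme that oxidises amino acids and is known from activated B cells and dendritic cells, was listed at 0 in humanCD3eTg, against 11.7 FPKM in B6J. Its value in humanCD3eTg was not exactly 0, at an estimated 5.35e-28 fragments. It counts as listed at 0 because it lies below 0.001 FPKM. The B6J value rests on about 478 fragments (436.1 to 522.8), and about 386 would have been counted in humanCD3eTg at that level. The annotation places Nup62, a nuclear pore gene, on the same strand over 14426 bases of the Il4i1 gene. Nup62 was of similar level in both libraries, at 25.9 FPKM in humanCD3eTg and 31.9 FPKM in B6J. On the opposite strand, Tbc1d17 shares 6187 bases with the Il4i1 gene and Atf5 shares 272 bases. Tbc1d17 stood at 10.5 FPKM in humanCD3eTg and 10.8 FPKM in B6J, and Atf5 at 32.55 FPKM in humanCD3eTg and 30.65 FPKM in B6J. How fragments in the shared stretches were divided among these genes is not given in the sources used here, nor is use of strand. The value of Il4i1 is therefore uncertain. The 9 B cell genes were low in both libraries, with a summed 9.95 FPKM in humanCD3eTg, against 14.8 FPKM in B6J. Of these, 4 averaged 1 FPKM or more. All 4 were lower in humanCD3eTg, with 0 past 2-fold on FPKM + 1 (median -0.575). Among all 13493 genes of that mean, 4.47% were lower by 2-fold or more. In plain FPKM the ratio of humanCD3eTg to B6J was 0.47 for Cd79a. The 11 dendritic cell genes summed to 61.3 FPKM in humanCD3eTg and 82.1 FPKM in B6J. Most of this came from Cd83, at 39.2 FPKM in humanCD3eTg and 60.3 FPKM in B6J, and Tcf4, at 14.6 and 14.65 FPKM. Itgax, Flt3 and Xcr1, picked after their values were seen, stood at 0.099, 0.11 and 0.14 FPKM in humanCD3eTg. In B6J these 3 stood at 0.052, 0.30 and 0.37 FPKM. The 9 macrophage genes summed to 18.96 FPKM in humanCD3eTg and 22.95 FPKM in B6J. The part of B cell, dendritic cell and macrophage transcripts in the difference of Il4i1 was not tested. Of 6811 genes with at least 10 FPKM in B6J, Il4i1 and Ubd belonged to 34 (0.499%) listed at 0 in humanCD3eTg. In the other direction this held for 28 of 6519 genes (0.43%).

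Ubd encodes FAT10, a ubiquitin-like protein that is induced by interferon gamma and TNF and directs proteins to the proteasome. It was listed at 0 in humanCD3eTg, against 17.7 FPKM in B6J, the second highest level of the members there after Pdpn. The B6J value rests on about 251 fragments (220.9 to 284), and about 202 would have been counted in humanCD3eTg at that level. Genes of the FAT10 pathway itself were close in both libraries, with 0 of 4 past 2-fold (median -0.06). Uba6, which activates FAT10, stood at 7.695 FPKM in humanCD3eTg and 8.01 FPKM in B6J, and Ube2z, which conjugates it, at 40.1 FPKM in humanCD3eTg and 44.1 FPKM in B6J. Among genes of the interferon gamma and TNF pathways 2 of 7 were at least 2-fold lower and 0 higher (median -0.47). Over all 13493 genes averaging 1 FPKM or more, 4.47% were lower and 2.10% higher by that much (median -0.05). Ciita, the switch for MHC class II genes, stood at 2.13 FPKM in humanCD3eTg and 13.3 FPKM in B6J. Ifngr1, a receptor chain for interferon gamma, stood at 7.22 FPKM in humanCD3eTg and 19.95 FPKM in B6J.

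**Figure D3:**
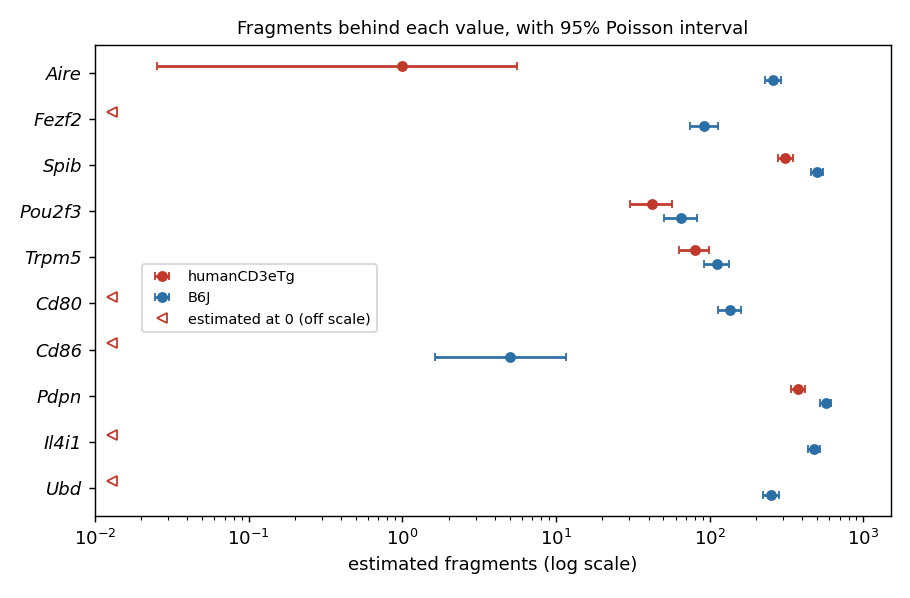
Estimated fragments behind each member (horizontal axis, log scale) in humanCD3eTg (red) and B6J (blue), with 95% Poisson intervals for counting error and open triangles for genes listed at 0. The intervals of Pou2f3 overlap between the libraries, at 30.3 to 56.8 in humanCD3eTg and 50.2 to 82.9 in B6J, and Cd86 rests on about 5 fragments in B6J. Fragments are not scaled for depth, which was lower in humanCD3eTg.

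Of 17 genes of RANK, CD40 and lymphotoxin signalling, which matures medullary epithelium, 13 averaged 1 FPKM or more. Of these, 4 (Cd40, Ltb, Tnfsf11 and Birc3) were at least 2-fold lower in humanCD3eTg, 0 were higher by that much and 9 lay within 2-fold (median -0.49). Among all genes of that mean, 4.47% were lower by 2-fold or more. Among the ligands, Tnfsf11, which encodes RANKL, stood at 0.404 FPKM in humanCD3eTg and 3.0 FPKM in B6J. Ltb, which encodes lymphotoxin beta, stood at 0.708 FPKM in humanCD3eTg and 5.27 FPKM in B6J. Cd40lg, the ligand of CD40, was listed at 0 in both libraries. The receptor gene Cd40 stood at 2.40 FPKM in humanCD3eTg and 20.1 FPKM in B6J, and Tnfrsf11a, which encodes RANK, at 0.244 FPKM in humanCD3eTg and 1.54 FPKM in B6J. Tnfrsf11b, the decoy receptor of RANKL, stood at 0.217 FPKM in humanCD3eTg and 1.11 FPKM in B6J. Relb, an NF-kB subunit required for the medulla, was closer, at 31.98 FPKM in humanCD3eTg and 60.8 FPKM in B6J. Pan-haematopoietic genes were lower in the same library, 10 of 10 by at least 2-fold (median -1.96). The part of the leukocyte transcripts in these differences was not tested.

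The wider list of medullary epithelial genes held differences in both directions. Of 22 genes, 18 averaged 1 FPKM or more, 9 of them lower and 3 higher by 2-fold or more (median -0.96). Among all 13493 genes of that mean, 4.47% were lower and 2.10% higher by 2-fold or more (median -0.05). Ccl19, a chemokine for T cells, was listed at 0 in humanCD3eTg, against 5.625 FPKM in B6J. Krt14, a basal keratin of the medulla, stood at 9.05 FPKM in humanCD3eTg and 22.9 FPKM in B6J. Krt5, its partner keratin, was higher, at 955.5 FPKM in humanCD3eTg and 280.2 FPKM in B6J. Cortical epithelial genes lay within 2-fold in 10 of 10 cases (median -0.45). Among 11 genes of epithelial identity, 1 was at least 2-fold lower and 1 higher (median -0.06), with Foxn1, the master regulator of thymic epithelium, at 43.7 FPKM in humanCD3eTg and 91.1 FPKM in B6J. Blood endothelial genes were lower in the same library, 8 of 9 by at least 2-fold (median -1.69).

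**Figure D4:**
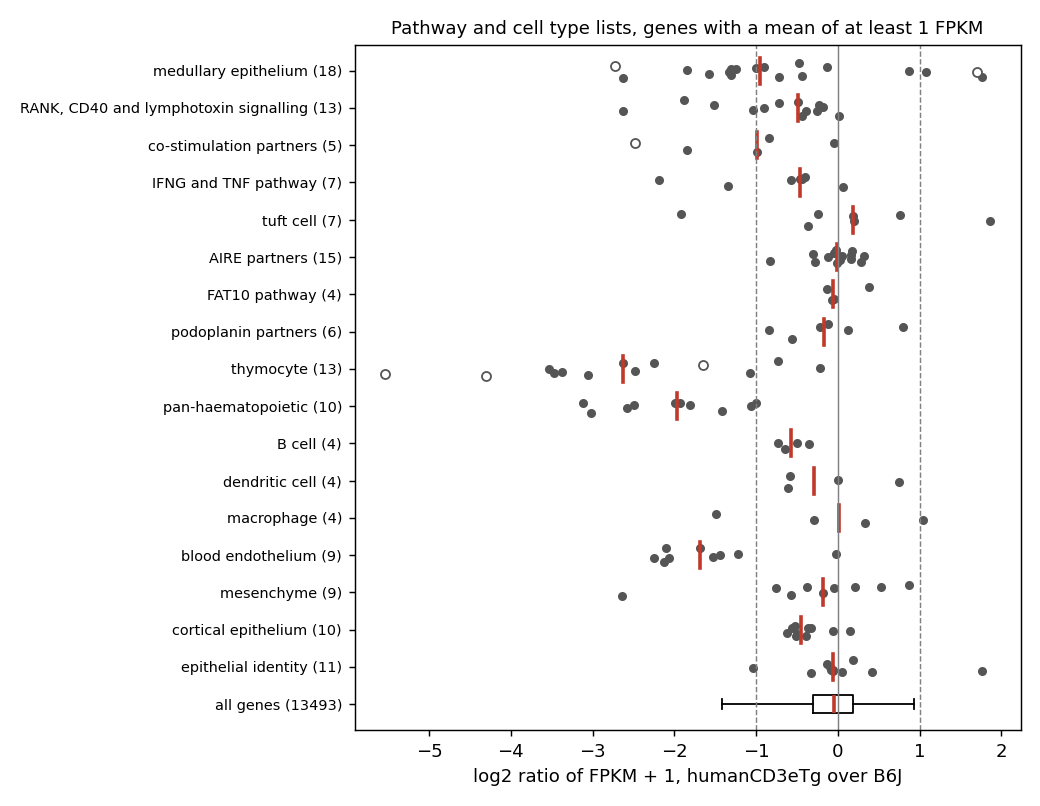
Log2 ratio of FPKM + 1 of humanCD3eTg over B6J (horizontal axis) for genes averaging 1 FPKM or more in each list (number in brackets), with red bars for medians and open circles for genes listed at 0 in 1 library. The box at the bottom spans the quartiles of all 13493 genes, with whiskers over their central 95%. Thymocyte, pan-haematopoietic and endothelial lists lie furthest to the left, the medullary list spreads to both sides, and the lists of AIRE partners and the FAT10 pathway lie near 0.

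The genes whose pair of levels was nearest to that of Aire were Cd27, Ifi47, Pglyrp2, Cysltr2 and Rag1, at distances of 0.0776 to 0.179 in the plane of log2(FPKM + 1). Cd27 stood at 0.046 FPKM in humanCD3eTg and 7.09 FPKM in B6J, and Rag1, the recombinase gene of developing lymphocytes, at 0.127 FPKM in humanCD3eTg and 8.35 FPKM in B6J. Likeness over 2 libraries is weak, since any gene with these levels would match. Ordered by level, the members in B6J ran from Pdpn and Ubd through Il4i1, Spib, Aire, Cd80, Fezf2, Trpm5 and Pou2f3 to Cd86. In humanCD3eTg the order was Pdpn, Spib, Trpm5, Pou2f3 and Aire, followed by the 5 genes listed at 0. By their counting intervals, Pdpn and Ubd in B6J overlapped (16.4 to 19.4 and 15.6 to 20.1 FPKM), as did Cd80 and Fezf2 (1.92 to 2.72 and 1.69 to 2.56 FPKM) and Trpm5 and Pou2f3 (1.17 to 1.72 and 1.05 to 1.74 FPKM). In humanCD3eTg the intervals of Trpm5 and Pou2f3 overlapped as well, at 1.01 to 1.59 and 0.788 to 1.48 FPKM.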

How the data were processed

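Levels are FPKM as deposited by the authors, in 1 table for each library. TopHat2 2.0.8, Bowtie2 2.1.0, Cufflinks 2.1.1 and mm9 appear, with no role or order, per the submitters' processing notes. Annotation, filters and use of strand: not given in the sources used here. The members and gene lists were chosen with earlier results of these data known.

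Log2 ratios (humanCD3eTg over B6J) were taken on FPKM + 1 with Python 3.11.15. FPKM of at most 0.001 counts as listed at 0. List counts use genes averaging 1 FPKM or more, and the members are counted without a filter. Fragments were estimated from single-transcript genes of GENCODE M21, as the step (searched from 0.03 to 0.12 FPKM over 1 kb) and the bases subtracted from the length at which most low values were within 0.1 of whole fragments. The step was 0.0622 in humanCD3eTg and 0.0502 in B6J, with 220 bases subtracted. Only 61.4% of 264 genes in humanCD3eTg and 57.7% of 326 genes in B6J came out whole, where 20% would do so for an arbitrary step, so the fragments are rough and serve only to give intervals of counting error, with no count test. It uses each member's longest coding transcript, and shorter isoforms would give fewer fragments. Poisson and exact binomial 95% intervals follow from it. The computation was tested on simulated data.

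Named genes were the 10 members, a fixed set around them, up to 4 genes of the largest absolute log2 ratio per list, listed genes at 0 in both libraries, and the 5 genes nearest to Aire. A gene of the interferon gamma and TNF list is not reported here and was left out of its counts. Dnmt3l, Tssc4, Tbc1d17, Atf5, Hmgcs1 and the motifs were chosen after the data were seen. The alternatives were pseudocounts of 0.1 and 5, 3 scalings, filters, and limits of 1.5-fold and 4-fold.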

Additional observations from a re-analysis of the deposited data

How the results depend on the processing

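With 1 library per group no replicate could be left out, and no paired analysis was possible because each group has 1 library. The count of 5 members at least 2-fold lower was 3 with a pseudocount of 5, 3 with a 4-fold limit, and 1 (Aire) without members listed at 0. It was within 1.5 times of 5 under the other alternatives, and no alternative gave a member at least 2-fold higher. The median of -0.98 over the members was -2.75 with a pseudocount of 0.1, -0.37 with 5, -1.63 over members with a mean of at least 1 FPKM and -0.27 without those listed at 0, so it has no stable size. Spib, Pou2f3, Trpm5 and Pdpn lay between -0.37 and 0.06 under 5 alternatives of pseudocount and scaling, and Trpm5 under quantile normalization was the only value above 0. Of 9 medullary genes at least 2-fold lower, 4 were counted with a mean filter of 5 FPKM and 3 with a pseudocount of 5. The 3 higher medullary genes became 1 with a pseudocount of 5. For tuft cell genes the 1 lower gene became 2 with no filter and 0 with a mean filter of 5 FPKM or a pseudocount of 5. The 1 higher gene became 2 with a pseudocount of 0.1 and 0 with a mean filter of 5 FPKM or a pseudocount of 5. Of 4 genes of RANK, CD40 and lymphotoxin signalling, 2 were counted with a mean filter of 5 FPKM and 1 with a pseudocount of 5. Counting error leaves Cd86, at about 5 fragments in B6J, without a detectable difference.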
